A study of Mus musculus with 12 samples.

Results

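Lyve1 and 7 further genes of the liver's sinusoidal endothelium were followed across 4 groups of mouse livers, as 8 of the 18193 genes measured. The members were Lyve1, Stab1, Stab2, Clec4g, Fcgr2b, Mrc1, Pecam1 and Kdr, and each was read from the probe set that named it as the only gene and had the highest mean over 12 arrays. The 8 genes had 14 such probe sets in all. The set was chosen by the measured values of Lyve1, whose transcript stood out in wild type livers given CDDO-Im, so the values of Lyve1 in comparisons that use wild type arrays are given as a description, without a test. The other 7 were picked as companions of the same cell type, and their tests are given.

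Liver RNA of male mice was measured on 12 Affymetrix arrays of 1 colour each, in 4 groups of 3. The mice were wild type or Nrf2 null, labelled also as Nrf2 knockout, and lacked in the latter case the transcription factor encoded by Nfe2l2. Each genotype was gavaged with vehicle or with the triterpenoid CDDO-Im, an activator of Nrf2, at a labelled dose of 30 uM/kg, and livers were sampled 6 hours later. Strain, age, the vehicle, the kind of null allele and whether arrays stand for different animals are not given in the sources used here, so the p-values measure only how these samples spread, which may be technical. All 6 vehicle titles carry a bracketed 2 that no CDDO-Im title carries, and an effect of whatever it stands for cannot be told apart from that of CDDO-Im.

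Sinusoidal endothelial cells line the liver's capillaries, which have open pores and no continuous basement membrane. They are known as the body's main scavenger endothelium: they take hyaluronan, collagen fragments, modified proteins and small immune complexes from blood through a set of endocytic receptors. Lyve1 binds hyaluronan, a long sugar polymer of the extracellular matrix, and marks lymphatic vessels as well as liver sinusoids and some tissue macrophages. Mrc1, Fcgr2b and Stab1 are also made by macrophages, so these names do not belong to endothelium alone. In RNA from whole liver, fewer cells of a type and less RNA per cell cannot be told apart.

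The arrays were first checked against their labels. Nfe2l2 read between 8.37 and 9.14 (log2) on the 6 wild type arrays and between 4.44 and 4.96 on the 6 Nrf2 null arrays. The median over probe sets lay between 5.77 and 5.83 on the 12 arrays, and their number limits the precision. Wild type vehicle replicate 3 and Nrf2 null vehicle replicate 2 stood apart by transcripts of the pancreas's acinar cells, the makers of digestive enzymes. The mean of 9 acinar genes was 10.70 and 9.03 on these arrays and 6.36 to 6.68 on the other 10. Some results that rest on these arrays are given with and without them, and others only with them. All 7 companion genes read above the array median on every array, whereas Lyve1 read below it on 9 of 12.

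Upstream sequence is shown for Kdr, Stab2 and Fcgr2b, the 3 companions with the smallest adjusted p for CDDO-Im against vehicle within a genotype, taken from RefSeq on the mouse build GRCm38.p6. Windows of 250 bases before a listed start were available for 6 of the 8 members, and Lyve1 and Pecam1 had no entry. For Kdr and Stab2 the listed start lay inside the annotated gene, and the Stab2 sequence is cut to its 154 bases outside. Both strands were searched for TGACNNNGC, the core of the antioxidant response element that Nrf2 binds, and for AGATAA, a form of the site read by GATA factors, of which Gata4 is known for its part in sinusoidal endothelium. The motifs do not overlap each other. Of 32851 listed windows of that length 10.2% held the first motif and 9.99% the second. Among the 6 members with a window the first motif occurred once, in Kdr, starting 50 bases before the listed start, and the second did not occur. A match describes letters only. The Fcgr2b and Stab2 sequences below lie outside the annotated gene on the minus strand, at chr1:170976072-170976321 and chr10:87008039-87008192, and hold neither motif. The Kdr stretch lies at chr5:75978487-75978515 on the minus strand, within the annotated span of the gene, and its capitals mark the match with 10 bases on each side.
Fcgr2b: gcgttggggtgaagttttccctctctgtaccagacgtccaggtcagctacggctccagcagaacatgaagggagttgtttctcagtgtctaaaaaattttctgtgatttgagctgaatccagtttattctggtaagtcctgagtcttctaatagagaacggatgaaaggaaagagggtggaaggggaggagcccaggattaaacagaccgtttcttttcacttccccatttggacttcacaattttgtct
Stab2: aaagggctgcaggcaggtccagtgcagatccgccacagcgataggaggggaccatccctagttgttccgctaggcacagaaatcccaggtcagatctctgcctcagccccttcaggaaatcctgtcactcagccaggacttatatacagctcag
Kdr: ctcccggtaaTGACCCCGCccccattcgc

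Lyve1 (Entrez Gene 114332, chromosome 7, 110850607 to 110862953) was high in 1 of the 4 groups. With vehicle it read 4.54, 5.03 and 4.90 (log2) in wild type replicates 1 to 3, and with CDDO-Im 6.89, 6.72 and 7.65. The Nrf2 null readings were 5.14, 4.62 and 5.01 with vehicle and 5.74, 4.74 and 5.01 with CDDO-Im. All 3 wild type CDDO-Im arrays lay above the other 9, and the other 3 groups overlapped one another. The group means were 7.09 ± 0.50 (SD, n = 3) in wild type with CDDO-Im, 5.16 ± 0.52 in Nrf2 null with CDDO-Im, 4.93 ± 0.27 in Nrf2 null with vehicle and 4.82 ± 0.25 in wild type with vehicle, and neighbours among the lowest 3 differed by less than their SDs.

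The wild type difference in Lyve1, which led to its choice, was 2.26, and it lay between 1.98 and 2.45 when any 1 of the 12 arrays was left out. In Nrf2 null livers the difference was 0.24 ± 0.28 (SE, interval of 95% from -0.37 to 0.84) and did not pass limma's test (adjusted p = 0.723). It was -0.05 without Nrf2 null CDDO-Im replicate 1, the null array on which Lyve1 was highest. The wild type effect less the null effect was 2.03. Among all probe sets of an array, Lyve1 ranked between the percentiles 22.4 and 34 with vehicle in wild type, between 67.6 and 81.2 with CDDO-Im in wild type, and between 23.5 and 49.2 in Nrf2 null livers. Since signal over background was not used here, the size of a difference from such dim values is uncertain and no fold is given.

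A second, dimmer Lyve1 probe set read 4.78, 4.96 and 4.96 with vehicle and 5.53, 5.30 and 5.62 with CDDO-Im in wild type livers. The Nrf2 null readings were 4.98, 5.02 and 4.80 with vehicle and 5.20, 4.91 and 5.03 with CDDO-Im. It placed the groups as the brighter probe set did, with a smaller wild type difference of 0.58. The platform annotation gives both probe sets the same source sequence, so they are not independent readings. Averaged over both, the wild type difference was 1.42.

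**Figure D1:**
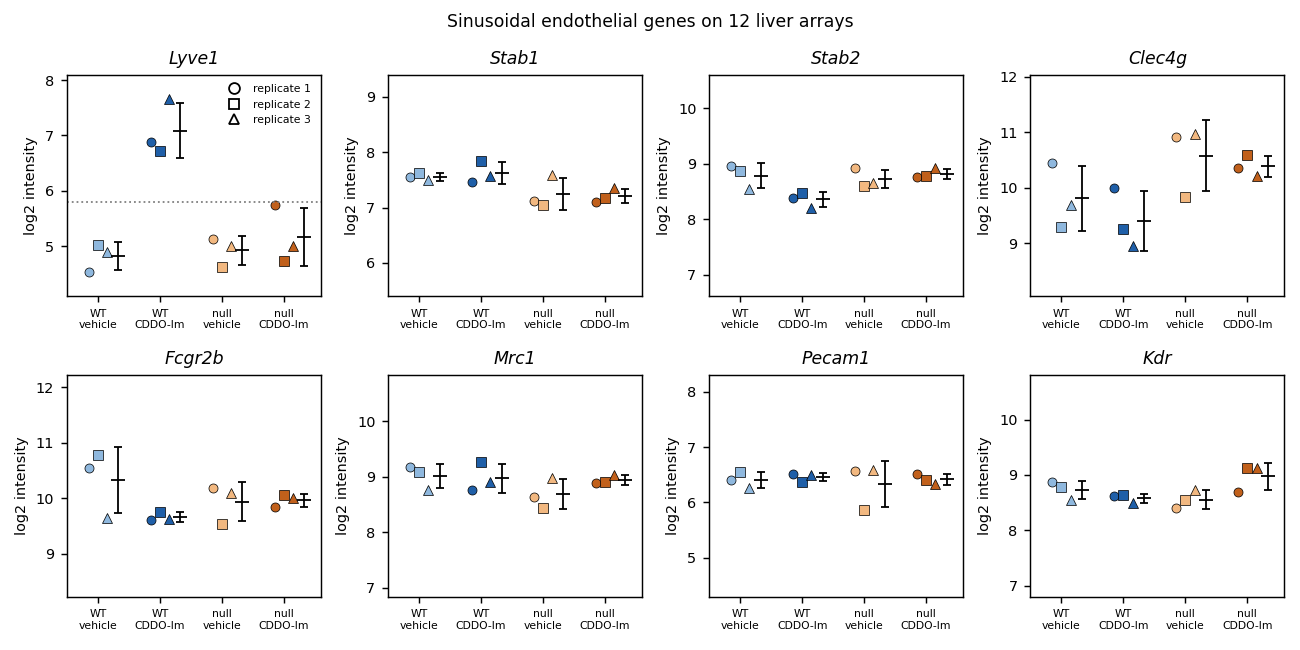
Log2 intensity of the main probe set of each of the 8 genes on 12 arrays, by group, with marker shape giving the replicate number and bars the mean ± SD over 3 arrays. All panels span 4 log2 units, and the dotted line in the Lyve1 panel is the median of the array medians (5.79), which Lyve1 exceeds on the 3 wild type CDDO-Im arrays.

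None of the 7 companions passed limma's test in wild type livers given CDDO-Im, where 1.82% of all genes did, 0.978% higher and 0.846% lower. At an unadjusted p under 0.05 there were 2, Stab2 and Fcgr2b, both lower with CDDO-Im, beside 13.6% of all genes. Their median difference was -0.15, with a range from -0.66 to 0.07, beside a median of 0.01 over all genes. Lyve1, at 2.26, was the one member of 8 above 0.07 in this comparison, which follows from its choice.

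Stab2 (Entrez Gene 192188, chromosome 10, 86841194 to 87008038), which clears hyaluronan and other polymers from blood, read 8.96, 8.87 and 8.54 with vehicle and 8.39, 8.47 and 8.21 with CDDO-Im in wild type livers. The CDDO-Im arrays all lay below the vehicle arrays, as for 8.18% of all genes. The difference was -0.43 ± 0.12 (SE, interval from -0.69 to -0.17) and did not pass (adjusted p = 0.102). Without wild type vehicle replicate 3, one of the arrays with acinar transcripts and the lowest of its group, Stab2 was lower by 0.56 on the log2 scale with an adjusted p of 0.0088. Over the alternatives its adjusted p ran from 0.00393 to 0.398.

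In the Nrf2 null livers Stab2 read 8.92, 8.61 and 8.66 with vehicle and 8.76, 8.78 and 8.92 with CDDO-Im. These groups overlapped, with a difference of 0.09 ± 0.12 (adjusted p = 0.771). The wild type effect less the null effect was -0.52 ± 0.17 and did not pass (adjusted p = 0.484, n = 3 per group, and 0.0719 to 0.876 over the alternatives).

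Stab1 (Entrez Gene 192187, chromosome 14, 31139017 to 31168651), the related scavenger receptor that takes up matricellular proteins, differed by 0.07 ± 0.14 in wild type and by -0.04 ± 0.14 in Nrf2 null livers. It read 7.55, 7.62 and 7.49 in wild type with vehicle and 7.45, 7.84 and 7.56 with CDDO-Im. In the null livers it read 7.12, 7.05 and 7.58 with vehicle and 7.11, 7.17 and 7.35 with CDDO-Im. The compound's groups overlapped in both genotypes. Under CDDO-Im the null arrays all lay below the wild type arrays, with a difference of -0.41 ± 0.14 that did not pass (adjusted p = 0.23).

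Clec4g (Entrez Gene 75863, chromosome 8, 3707066 to 3720695), a lectin that binds exposed sugars on glycoproteins, varied widely between arrays of a group. It read 10.45, 9.29 and 9.70 in wild type with vehicle and 9.9987, 9.26 and 8.95 with CDDO-Im. Without Nrf2 it read 10.92, 9.84 and 10.97 with vehicle and 10.36, 10.59 and 10.21 with CDDO-Im. The SD within a group reached 0.64, and the intervals of its differences are correspondingly wide, from -1.18 to 0.37 for the effect of CDDO-Im in wild type and from -0.97 to 0.58 in Nrf2 null. Under CDDO-Im the null arrays lay above the wild type arrays by 0.98 ± 0.35 without passing (adjusted p = 0.269). A second, dimmer probe set of Clec4g showed a difference of -0.11 in that comparison, so the probe sets disagreed.

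Mrc1 (Entrez Gene 17533, chromosome 2, 14229414 to 14332023), the mannose receptor that takes up collagen chains and lysosomal enzymes, read 9.18, 9.09 and 8.77 in wild type with vehicle and 8.76, 9.26 and 8.91 with CDDO-Im. In the null livers it read 8.64, 8.44 and 8.97 with vehicle and 8.89, 8.90 and 9.04 with CDDO-Im. The groups overlapped in all 4 comparisons of 2 groups. Its largest difference was -0.33 ± 0.16 between genotypes with vehicle (adjusted p = 0.403). Mrc1 lies on the same chromosome as Nfe2l2.

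Fcgr2b (Entrez Gene 14130, chromosome 1, 170960558 to 170976071), the inhibitory Fc receptor through which sinusoidal cells remove small immune complexes, read 10.55, 10.77 and 9.65 with vehicle and 9.61, 9.76 and 9.62 with CDDO-Im in wild type. In Nrf2 null livers it read 10.19, 9.53 and 10.10 with vehicle and 9.84, 10.06 and 10.01 with CDDO-Im. In wild type, vehicle replicates 1 and 2 lay above the other 4 arrays of that genotype. The wild type difference was -0.66 ± 0.24 and did not pass (adjusted p = 0.237). Without wild type vehicle replicate 3 it was -0.9996 with an adjusted p of 0.0028, and without both arrays with acinar transcripts the adjusted p was 0.000162. Without wild type vehicle replicate 2 it was -0.44 with an adjusted p of 0.693. The null difference was 0.03 ± 0.24 (adjusted p = 0.974), and the difference between the genotypes' effects, -0.69 ± 0.35, did not pass (adjusted p = 0.754).

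The 5 probe sets of Fcgr2b did not read alike. The main one, 1435477_s_at, and the probe sets 1451941_a_at and 1455332_x_at differed by -0.66, -0.60 and -0.56 between CDDO-Im and vehicle in wild type. The probe set 1435476_a_at, also bright, differed by 0.03 there, with readings of 9.48, 9.59 and 9.44 with vehicle and 9.57, 9.52 and 9.53 with CDDO-Im. In the Nrf2 null livers it read 9.34, 9.12 and 8.99 with vehicle and 9.40, 9.78 and 9.66 with CDDO-Im. Its CDDO-Im arrays all lay above the vehicle arrays there, as for 11.6% of all genes. The rise of 0.47 ± 0.10 passed limma's test over every probe set of the array (adjusted p = 0.0324). The fifth probe set, 1447622_at, read between 4.20 and 4.62 throughout. In the maker's naming _s_at and _x_at mark probe sets that can bind transcripts of more than one gene. The ending _a_at marks those that bind several transcripts of a gene. The _a_at probe sets differed from each other in wild type, at -0.60 and 0.03, so the direction of the wild type difference of Fcgr2b is uncertain. The wild type effect less the null effect lay below 0 on all 5, from -0.78 to -0.26. It passed limma's test on none (adjusted p from 0.618 to 0.889).

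**Figure D2:**
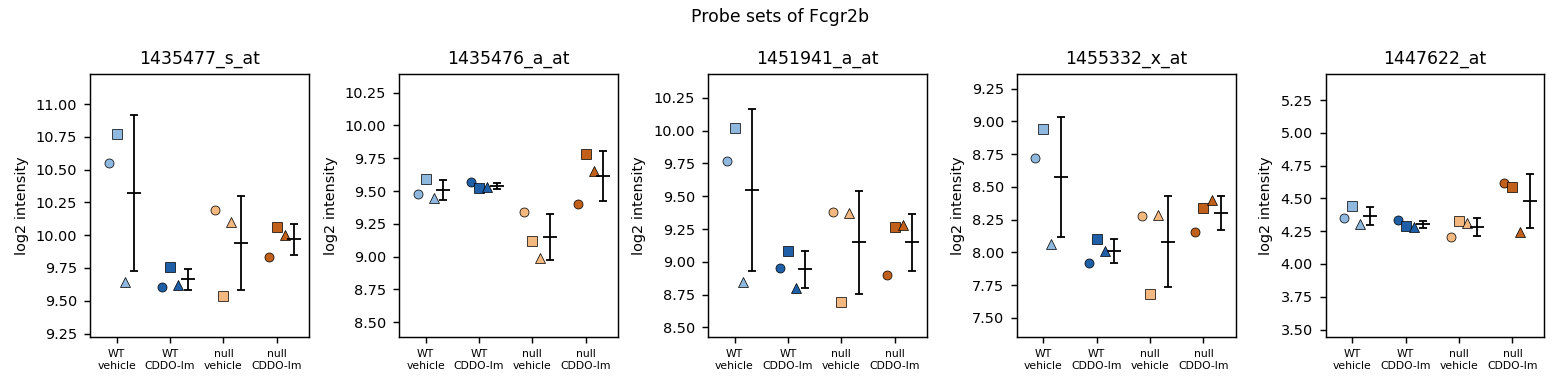
Log2 intensity of each Fcgr2b probe set on 12 arrays by group, each panel spanning 2 log2 units, with shapes giving replicates 1 (circle), 2 (square) and 3 (triangle) and bars the mean ± SD. In every panel but that of 1435476_a_at (difference of 0.03) wild type vehicle replicates 1 and 2 stand above wild type CDDO-Im. The differences there are -0.66, -0.60 and -0.56, and -0.06 for the dim 1447622_at.

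Pecam1 (Entrez Gene 18613, chromosome 11, 106654213 to 106715281), an adhesion molecule of cell junctions in most endothelium, read 6.40, 6.55 and 6.26 in wild type with vehicle and 6.51, 6.38 and 6.50 with CDDO-Im. Without Nrf2 it read 6.57, 5.86 and 6.58 with vehicle and 6.52, 6.41 and 6.33 with CDDO-Im. One value stood low, that of Nrf2 null vehicle replicate 2. Pecam1 differed by 0.06 ± 0.16 in wild type and 0.09 ± 0.16 in the null livers, and without the low array the latter was -0.15, with no call in either case.

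Kdr (Entrez Gene 16542, chromosome 5, 75932827 to 75979072), the main signalling receptor for vascular endothelial growth factor, read 8.87, 8.78 and 8.55 in wild type with vehicle and 8.61, 8.64 and 8.49 with CDDO-Im. In the null livers it read 8.40, 8.55 and 8.73 with vehicle and 8.70, 9.12 and 9.12 with CDDO-Im. Replicate 1 of the last group lay within the range of the vehicle arrays and the other 2 lay above it. The null difference was 0.42 ± 0.13 (interval from 0.14 to 0.71) and did not pass (adjusted p = 0.0809). Without Nrf2 null CDDO-Im replicate 1 it was 0.56 with an adjusted p of 0.0233, and over all alternatives the adjusted p ran from 0.0228 to 0.267. The wild type difference was -0.15 ± 0.13 (adjusted p = 0.708), and the difference between the effects, -0.58 ± 0.18, did not pass (adjusted p = 0.457, n = 3 per group).

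**Figure D3:**
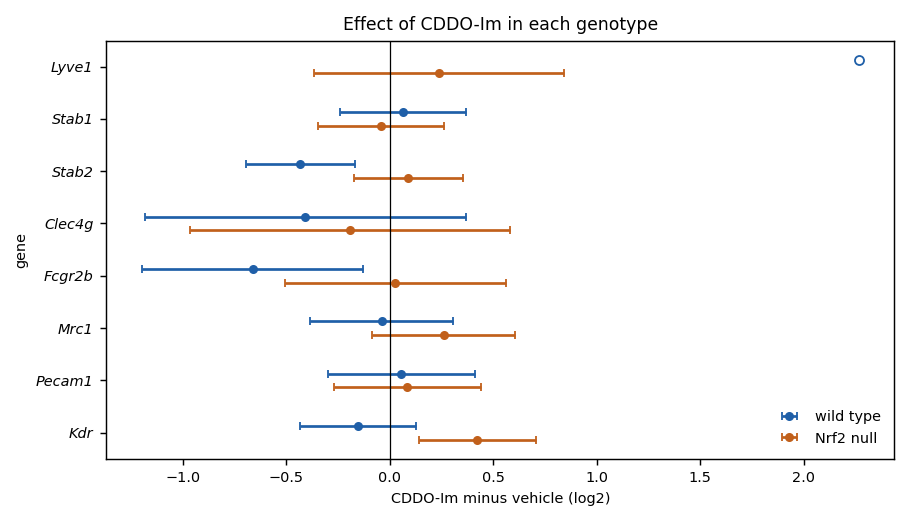
CDDO-Im minus vehicle (log2) for the 8 genes in wild type (blue) and Nrf2 null (orange) livers, with intervals of 95% from the fitted model. The open circle is Lyve1 in wild type (2.26), drawn without an interval because the gene was picked for it, and the companions lie between -0.66 and 0.42.

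In the Nrf2 null livers none of the 7 companions was called by limma, against 5.9% of all genes (3.58% higher, 2.32% lower), and 1, Kdr, had an unadjusted p under 0.05, beside 19.4% of all genes. Their median difference was 0.09, beside -0.005 over all genes. Between genotypes with vehicle none was called, against 0.39% of all genes, with Stab1 alone at an unadjusted p under 0.05 (-0.31 ± 0.14), beside 13.2% of all genes. Between genotypes under CDDO-Im none was called, against 1.45% of all genes (0.621% higher, 0.824% lower). In that comparison 4 had an unadjusted p under 0.05, namely Stab1, Stab2, Clec4g and Kdr, beside 11.3% of all genes.

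The arrays under CDDO-Im nevertheless separated for several members. The null arrays lay above all wild type arrays for Stab2, Clec4g, Fcgr2b and Kdr, 4 of the 7, where 9.01% of all genes did so, and below them for Stab1, where 7.82% did. These are readings of the main probe sets. On other probe sets of Fcgr2b the groups overlapped (1435476_a_at, 1451941_a_at and 1447622_at) or did not (1455332_x_at). On the second probe set of Clec4g they overlapped. With 3 against 3 arrays the smallest exact permutation p is 0.1. Stab2 differed by 0.46 ± 0.12 (adjusted p = 0.101) and passed without wild type vehicle replicate 3 (adjusted p = 0.0323). Kdr differed by 0.40 ± 0.13 (adjusted p = 0.205). Lyve1 ran the other way, at -1.92. The difference between the genotypes' effects of CDDO-Im was called for none of the 7, against 0.137% of all genes, with Stab2 and Kdr at an unadjusted p under 0.05, beside 7.1% of all genes.

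Much of the variation within groups was shared between members. Of the 7 companions 6 were lowest in wild type vehicle replicate 3 among the arrays of its group, and 6 in Nrf2 null vehicle replicate 2. Those are the arrays with acinar transcripts. The mean of the 7 genes was 8.42 on the first against 8.71 to 8.85 on the others of its group, and 8.27 on the second against 8.68 to 8.80. Means of 15 Kupffer cell and macrophage markers moved with them, at 7.80 against 8.22 to 8.59 and 7.56 against 8.04 to 8.20. The part of either list in the members' differences was not tested. Lyve1 was lowest of its group on the second array (4.62) but not on the first (4.90).

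**Figure D4:**
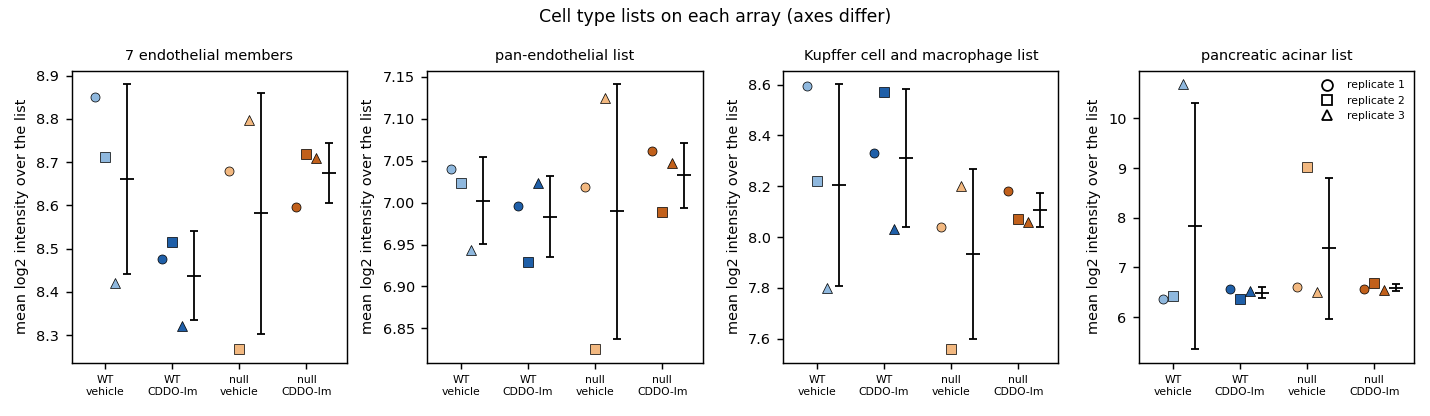
Mean log2 intensity per array of the 7 companion genes, 24 pan-endothelial genes, 15 Kupffer cell and macrophage markers and 9 acinar genes, by group, with shapes for replicates and bars for mean ± SD; the vertical axes differ. Wild type vehicle replicate 3 and Nrf2 null vehicle replicate 2 are high in the acinar panel (10.70 and 9.03) and lowest of their group in the others.

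Genes outside the 8 members were read from lists. Among 17 other sinusoidal and central vein endothelial genes, 2 rose in wild type livers given CDDO-Im and none fell (median difference -0.02), where 0.978% of all genes rose, and 2 rose in Nrf2 null livers, where 3.58% did. At an unadjusted p under 0.05 there were 7 of the 17 in wild type, 4 higher and 3 lower with CDDO-Im, and 4 in Nrf2 null livers, beside 13.6% and 19.4% of all genes. Bmp6, a growth factor by which sinusoidal cells signal iron load to hepatocytes, read 5.56, 5.73 and 6.18 with vehicle and 6.81, 6.67 and 6.68 with CDDO-Im. All CDDO-Im arrays lay above the vehicle arrays, as for 8.42% of all genes, and the rise of 0.90 ± 0.15 passed (adjusted p = 0.00968). In the Nrf2 null livers Bmp6 read 5.70, 5.31 and 5.59 with vehicle and 5.81, 6.00 and 6.02 with CDDO-Im, a difference of 0.41 ± 0.15 that did not pass (adjusted p = 0.137). The difference between these effects was 0.49 and did not pass (adjusted p = 0.668). With CDDO-Im Bmp6 was lower in the null livers by 0.78 on the log2 scale (adjusted p = 0.0228). Its wild type call was lost in a fit of the compared arrays alone and without wild type vehicle replicate 1 or 2 (adjusted p up to 0.0698), and its call between genotypes without any of the 6 CDDO-Im arrays (adjusted p up to 0.0976). Bmp6 read below the array median on 2 of 3 wild type vehicle arrays, so the size of its rise is uncertain.

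Oit3, a secreted protein found in sinusoidal endothelium, rose in both genotypes. It read 7.67, 7.67 and 7.90 with vehicle and 8.28, 8.25 and 8.23 with CDDO-Im in wild type, a rise of 0.51 ± 0.11 (adjusted p = 0.0332). In Nrf2 null livers it read 7.64, 7.62 and 8.01 with vehicle and 8.31, 8.37 and 8.46 with CDDO-Im, a rise of 0.63 ± 0.11 (adjusted p = 0.011). The CDDO-Im arrays lay above the vehicle arrays in both genotypes, as for 8.42% of all genes in wild type and 11.6% in Nrf2 null livers. The effects differed by -0.12, which did not pass (adjusted p = 0.939). The wild type call was lost in a fit of the compared arrays alone, when arrays were shifted to one median, and without wild type vehicle replicate 1 or 2, any wild type CDDO-Im array or Nrf2 null CDDO-Im replicate 2 (adjusted p up to 0.174). The null call was lost without Nrf2 null CDDO-Im replicate 3 (adjusted p = 0.0546).

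Ehd3, a membrane-trafficking protein, read 8.94, 8.77 and 9.08 with vehicle and 9.30, 9.30 and 9.29 with CDDO-Im in Nrf2 null livers. It rose by 0.36 ± 0.09 there (adjusted p = 0.0441) and was higher in null than in wild type livers under CDDO-Im by 0.45 (adjusted p = 0.0383). Most alternatives ended both calls, with adjusted p up to 0.156 and 0.148. In the null livers the call was kept in 6 of 21 alternatives, and between genotypes in 8 of 21.

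Of the pan-endothelial list's 24 genes limma called none in either genotype given CDDO-Im. It called 1.82% of all genes in wild type and 5.9% in Nrf2 null livers. At an unadjusted p under 0.05 there were 4 of the list in wild type and 4 in Nrf2 null livers, beside 13.6% and 19.4% of all genes. The nearest were Egfl7, a secreted vascular factor, at -0.27 in wild type (adjusted p = 0.0852, and 0.0142 to 0.857 over the alternatives) and Icam2, an adhesion ligand, at 0.28 in Nrf2 null livers (adjusted p = 0.0648, and 0.0154 to 0.221). The median difference of the list was -0.002 in wild type and 0.05 in Nrf2 null livers. Nor was any of 16 genes of the vascular endothelial growth factor and angiopoietin pathway called in these comparisons. At an unadjusted p under 0.05 there were 3 in wild type and 4 in Nrf2 null livers, beside the same 13.6% and 19.4%. Nrp1, a co-receptor of Kdr, differed by -0.74 in wild type (adjusted p = 0.188), by -1.02 without wild type vehicle replicate 3 (adjusted p = 0.0154) and by -0.65 without wild type vehicle replicate 2 (adjusted p = 0.527). Of 10 genes of endothelial activation 1 was called, Icam1, an adhesion molecule for leukocytes. It fell by 0.62 in Nrf2 null livers (adjusted p = 0.0476), where 2.32% of all genes fell, and kept the call in 8 of 21 alternatives. In wild type Icam1 differed by -0.40 and did not pass (adjusted p = 0.287). Hmox1 was the nearest of that list in wild type, at 0.58 ± 0.15 (adjusted p = 0.0856, and 0.0231 to 0.261 over the alternatives). The list had 3 genes at an unadjusted p under 0.05 in wild type, 1 higher and 2 lower with CDDO-Im. It had 1, lower, in Nrf2 null livers, beside the same 13.6% and 19.4% of all genes.

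Of 8 lymphatic endothelial genes limma called none in either genotype given CDDO-Im. At an unadjusted p under 0.05 there were 1 in wild type and 2 in Nrf2 null livers, beside 13.6% and 19.4% of all genes. Prox1, the lymphatic transcription factor that hepatocytes also make, was nearest in wild type at -0.59 (adjusted p = 0.132).

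Among 13 genes of hyaluronan synthesis and turnover, 1 was called. Ugdh makes UDP-glucuronate, a building block of hyaluronan that also feeds glucuronidation. It read 8.48, 8.48 and 9.47 with vehicle and 11.48, 11.66 and 11.77 with CDDO-Im in wild type, without overlap, a rise of 2.83 ± 0.23 (adjusted p = 5.02e-05). Of all genes 0.978% were called higher there, and 8.42% were higher without overlap. In Nrf2 null livers Ugdh read 7.94, 8.35 and 7.96 with vehicle and 8.79, 8.90 and 8.54 with CDDO-Im. These groups did not overlap either, as for 23.1% of all genes. The null difference was 0.66 ± 0.23 and did not pass (adjusted p = 0.124), though 3 of 21 alternatives called it. The difference between the genotypes' effects was 2.17 (adjusted p = 0.0238). That call was lost in 10 of 12 cases when 1 array was left out (adjusted p up to 0.0944), the exceptions being wild type vehicle replicate 3 and Nrf2 null vehicle replicate 3. None of the other 12 measured genes was called, among them Has1, Has2, Has3, Hyal2, Hyal3 and Cd44, and Hyal1 was not among the genes measured here.

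Markers of other cell types were read beside these. Of 15 Kupffer cell and macrophage markers none was called in wild type or Nrf2 null livers given CDDO-Im. At an unadjusted p under 0.05 there were 1 and 4, beside 13.6% and 19.4% of all genes. Their mean level ran from 7.80 to 8.59 in wild type with vehicle, 8.03 to 8.57 in wild type with CDDO-Im, 7.56 to 8.20 in Nrf2 null with vehicle and 8.06 to 8.18 in Nrf2 null with CDDO-Im, and these ranges overlapped. All 15 differences between genotypes with vehicle lay below 0, with a median of -0.27, no call and none at an unadjusted p under 0.05. They are given only with the arrays that carried acinar transcripts, each the lowest of its group for this list. Marco, a scavenger receptor of macrophages, was lower in null than in wild type livers under CDDO-Im by 1.32 on the log2 scale (adjusted p = 0.0307). It lost that call on the mean of its probe sets, with arrays shifted to one median, and without wild type CDDO-Im replicate 2 or any of the 3 Nrf2 null CDDO-Im arrays (adjusted p up to 0.0993). None of 12 stellate cell and fibroblast genes, 7 lymphocyte genes, 4 adipocyte genes or 9 acinar genes was called by limma in either genotype given CDDO-Im. At an unadjusted p under 0.05 there were 3, 0, 0 and 0 of them in wild type and 3, 1, 0 and 0 in Nrf2 null livers. The shares over all genes were again 13.6% and 19.4%. Of 7 neutrophil markers 2 were called, both in Nrf2 null livers, where 2.32% of all genes fell. S100a8 fell by 1.27 and S100a9 fell by 0.95 on the log2 scale. In wild type they differed by -0.71 and -0.51 and did not pass limma's test (adjusted p = 0.142 and 0.314). At an unadjusted p under 0.05 there were 2 of the 7 in each genotype, all lower with CDDO-Im. S100a8 lost the call without Nrf2 null CDDO-Im replicate 3 (adjusted p = 0.0546), and S100a9 without Nrf2 null vehicle replicate 2 or 3 or Nrf2 null CDDO-Im replicate 2 or 3 (adjusted p up to 0.118). Of 9 hepatocyte genes 1 was called, Fgb, a fibrinogen chain. It fell by 0.67 in wild type and fell by 0.46 in Nrf2 null livers, where 0.846% and 2.32% of all genes fell. Its wild type call was lost in a fit of the compared arrays alone and without wild type vehicle replicate 1 or 2 or wild type CDDO-Im replicate 1 (adjusted p up to 0.107). Its null call was kept in 10 of 21 alternatives.

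The 6 genes whose profile over 12 arrays came closest to that of Lyve1 were Pgd, Cbr3, Nqo1, Gstm2, Gstm6 and Gsr. Likeness was the root mean square difference between profiles after each gene was centred on its own mean, and it ran from 0.34 to 0.42 log2 units for these genes. A flat profile would have given 0.98. The companions lay farther away, from 0.91 for Stab1 to 1.44 for Clec4g, and the nearest of them, Stab1, ranked 1287 among all genes. The measure favours genes with a difference of similar size, and the points share the same 12 arrays. It includes the wild type CDDO-Im values that led to the choice of Lyve1. The distance of genes without such a rise, the companions among them, follows from that choice. Pgd supplies NADPH, Cbr3 and Nqo1 reduce carbonyls and quinones, Gstm2 and Gstm6 join glutathione to foreign compounds, and Gsr regenerates glutathione.

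Pgd, for example, averaged 8.14 and 10.26 in wild type with vehicle and with CDDO-Im, and 8.43 and 8.05 in Nrf2 null. Nqo1 averaged 5.12 and 7.20, and 4.84 and 4.88, in the same order, and like Lyve1 it read below the array median on 9 of 12 arrays. The null livers were not alike for all 6 genes. Gstm2 averaged 7.85 with vehicle and 8.69 with CDDO-Im there, and Gstm6 6.32 and 7.16. Cbr3 averaged 5.38 and 5.45 in the null livers, and Gsr 9.48 and 9.64. When 1 array was left out, 3 to 6 of the same 6 genes were again the nearest, with 3 without wild type CDDO-Im replicate 3, the array on which Lyve1 was highest. Of these genes Gsr had no listed upstream window, and the windows of the other 5 did not hold TGACNNNGC. Only 10.2% of all listed windows held it, and bases beyond these 250 were not searched.

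**Figure D5:**
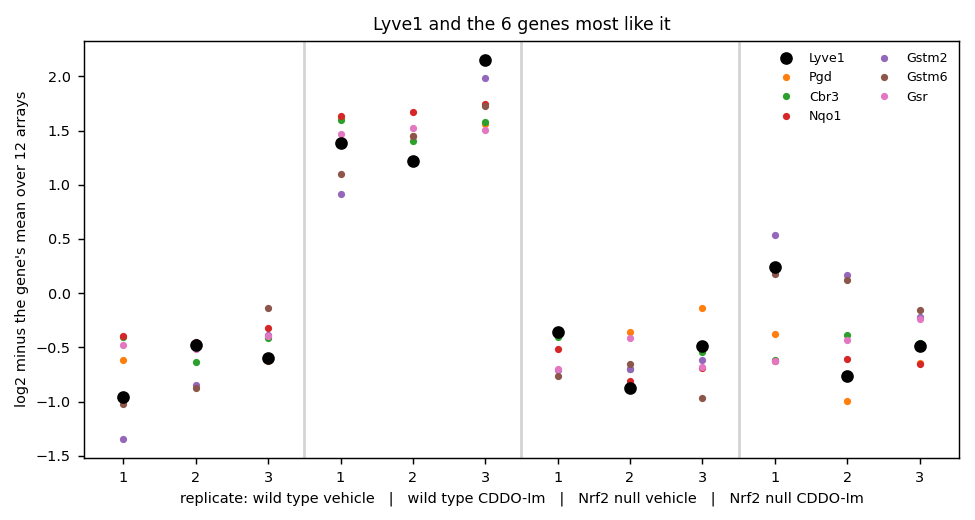
Log2 intensity less the gene's own mean over 12 arrays for Lyve1 (black) and the 6 genes most like it, with arrays ordered by group and replicate. All 7 genes lie above 0.9 on the 3 wild type CDDO-Im arrays and below 0.6 on the other 9.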

How the data were processed

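The authors deposited log2 intensities of each probe set on each array. The submitters' processing notes name RMA and give no version, and the values were used unchanged. Of 45101 probe sets 64 were controls, 34945 named 1 gene, 932 several and 9160 none, by GEO's platform annotation. Symbols were checked by Entrez Gene id against GRCm38.p6, which matched 34741 probe sets and changed 0. Each gene was read from the brightest probe set that names it alone, and dim genes were kept. All 12 arrays and 18193 genes were fitted together, each group with its own mean, with limma 3.58.1 in R 4.3.3 (moderated test, two-sided), and a call is a Benjamini-Hochberg adjusted p under 0.05 over all genes. Errors of differences are the model's SE, and errors of means are SD. The fit was tested on simulated data. The number of arrays limits the precision.

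The members and lists were chosen with earlier results of these data known. There were 13 lists, with 151 of 163 entries measured. Named were all members, from each list up to 2 called genes with the smallest adjusted p per comparison (otherwise the nearest), Nfe2l2, and the 6 genes most like Lyve1, leaving out clone and model names. Alternatives changed array weights, arrays in the fit, the filter on dim genes, probe sets, scaling, the prior, the threshold and the replicate number as a block, and left out arrays.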

Additional observations from a re-analysis of the deposited data

How the results depend on the processing

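The count of 0 called among the 7 companions changed under few alternatives. In wild type livers it was 2 (Stab2 and Fcgr2b) with array weights and without both arrays with acinar transcripts, and 0 to 2 when 1 array was left out, with 2 without wild type vehicle replicate 3. In Nrf2 null livers it was 1 (Kdr) with array weights and 0 to 1 when 1 array was left out, with 1 without Nrf2 null CDDO-Im replicate 1. Between genotypes it was 3 (Stab1, Fcgr2b and Mrc1) with vehicle under array weights. Under CDDO-Im it was 1 (Stab2) with array weights and without both acinar arrays, and 0 to 1 when 1 array was left out, with 1 without wild type vehicle replicate 3. The difference between effects gave 0 throughout, and the cause of these changes was not tested. Of 827 values of single members under an alternative, 797 moved by less than the spread between replicates or kept their side of the threshold. Another 16 moved further and 14 passed where they had not. No member value was called in the main fit, so there was no called value whose sign could change. Uncalled values did change sign, in up to 5 of 20 alternatives for 1 value (Pecam1, difference between effects). Without dim genes Lyve1 was not among the genes tested, and the difference between effects has no fit on the compared arrays alone, since it uses all 12.

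Replicate numbers are shared between groups, but the labels do not say that they pair samples. Over 18 pairs of same-numbered arrays the correlation of deviations from the group means, across genes, ran from -0.3 to 0.278, was over 0.1 in 4, and was the highest for the own number in 5. With the replicate block the count of companions called was 0 in every comparison. The block left Ehd3 at adjusted p = 0.0752 in Nrf2 null livers and 0.0849 between genotypes under CDDO-Im, and Fgb at 0.06 in Nrf2 null livers. The alternatives for list genes and for the genes like Lyve1 were chosen after seeing the data.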
